A study of Homo sapiens with 2 samples.

Results

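The crosslink sites of hnRNPM that stood alone and low were described here, in a list of sites mapped by iCLIP in HMLE cells. A lone low site had a height under 100 and no other listed site of the same chromosome and strand with its middle within 50 kb. The sites were thus chosen by their measured heights and positions, and these values are given as a description. The rule found 1572 such sites among 54373, which is 2.89% of the list, and they held 1.75% of its summed height (14947 of 854261). The remaining sites were 52792 with at least 1 same-strand neighbour within 50 kb and 9 lone sites of height 100 and more. Height is the whole number that the authors gave as the score of a site and also wrote as PH in its name. It was read as the number of reverse transcription stops at the site, which the file itself does not state.

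hnRNPM is an abundant nuclear RNA-binding protein that coats newly made transcripts. It binds GU-rich stretches of unspliced transcripts, mostly in introns, and helps decide which exons are kept, including exons that change when mammary epithelial cells take on a mesenchymal form. In iCLIP, ultraviolet light fixes the protein to the RNA it touches, an antibody pulls the complex down, and reverse transcriptase often stops at the crosslinked base. A long transcript bound at many places therefore gives a run of sites on 1 strand, and a lone site is a position for which the list holds no such run.

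The series asked where hnRNPM binds in HMLE cells. These are immortalised mammary epithelial cells of human origin, kept as an established line and grown in mammary epithelial medium. The 2 libraries, which the labels call biological replicates, came from wild-type cells that received DMSO, and they formed 1 group with no second condition. The deposited list has 1 height per site and names no library, so it was taken as pooled, and no spread between replicates, no depth per library and no test over samples could be had. Every comparison below is therefore a description, and each interval is a 95% interval that covers counting error over sites only (Wilson for a share, order statistics for a median). RNA levels were not set beside the sites. Positions are 1-based on GRCh37; the gene annotation at hand was on GRCh38, so neither genes nor sequences are given at the sites, and the markers of the cell line were not looked up.

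Most lone low sites were near the lowest heights in the list. Their median height was 8 (quartiles 6 and 10, range 4 to 96), against 11 (quartiles 9 and 17) for sites with a neighbour. Of the 1572 sites, 1115 (70.9%) had a height under 10 and 1495 (95.1%) one under 20, while 34.4% and 79.7% of sites with a neighbour did. Only 8 lone low sites reached a height of 50. The height limit of the rule, at 100, removed only the 9 lone sites above it, so the low heights were not set by that limit.

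The share of sites that stood alone was highest at the lowest heights. At a height of 5, 161 of 527 sites were alone (30.6%, interval 26.8 to 34.6). At a height of 6 the share was 11.04% (9.96 to 12.2; 325 of 2944), and at 7 it was 5.45% (279 of 5118). It was 2.17% at a height of 10, 1.22% at 16 to 19 and 0.845% at 20 to 29. From 30 to 99 it was level within its intervals, with 0.539% (0.341 to 0.851) at 30 to 49 and 0.654% (0.332 to 1.28) at 50 to 99. Heights of 100 and more, with 9 lone sites, are outside these classes. Of the 52792 sites with a neighbour, 52609 were under 100, so the lone share at 100 and more was higher than at 20 to 99. The list held only 7 sites of height 4, of which 5 were alone. Its largest deposited P was 0.000999, so the shares at the lowest heights cover only sites with a P that small.

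**Figure D1:**
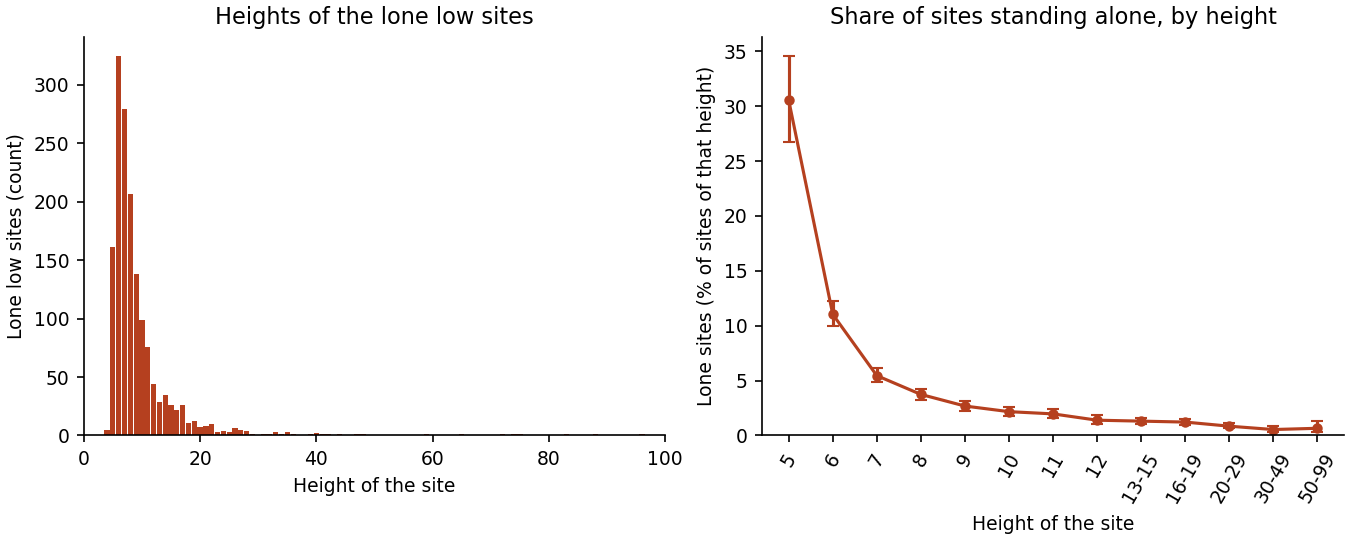
Left, the number of lone low sites (vertical axis) at each height (horizontal axis). Right, lone sites as a percentage of all listed sites of that height, for heights of 5 to 99, with 95% Wilson bars. The share was 30.6% at a height of 5, 2.17% at 10 and under 1% in the classes from 20 to 99.

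Lone low sites had low values of PH0. This value, written in each site name, was read as the height expected given the tags in the surrounding tag cluster. It has 1 value per cluster, and the file does not define it. Its median was 0.26 (quartiles 0.19 and 0.38, range 0.07 to 17.2) for lone low sites and 0.52 (0.35 and 0.82) for sites with a neighbour. In all 23 chromosomes the median of the lone low sites was the lower one. PH0 was above 1 at 30 lone low sites (1.91%), against 16.9% of sites with a neighbour.

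Part of this gap went with height. When the sites with a neighbour were weighted to the heights of the lone low sites, their median PH0 was 0.32. The difference was small or absent at the lowest heights: at a height of 5 both medians were 0.14, and at 6 they were 0.21 and 0.22. The largest deposited P in the list was 0.000999. Named sites of height 5 with a PH0 of 0.14 or 0.15 had a P of 0.000896 to 0.000995. Medians at the lowest heights can therefore not be told apart from the limit on listed sites. The difference was wider from 10 upward, with 0.34 for lone low sites and 0.47 for the others at a height of 10, and 0.51 against 0.74 at 16 to 19. Among the 8 lone low sites of height 50 to 99 the order turned, with medians of 2.79 and 1.82.

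Height divided by PH0 was correspondingly higher at lone low sites. The median ratio was 29.6 (interval 29.2 to 30), against 23.5 for sites with a neighbour and 25 after weighting to the same heights. Sites with a neighbour that were alone in their tag cluster, as every lone low site was, had a median ratio of 25.8 and a median PH0 of 0.40. Since PH0 enters the ratio, these are not separate measures.

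**Figure D2:**
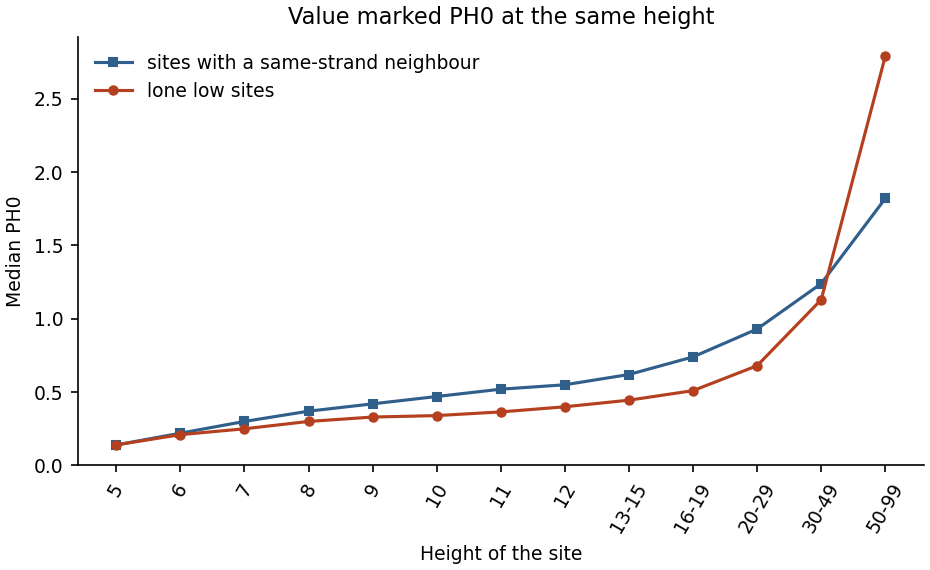
Median PH0 (vertical axis) of lone low sites (circles) and of sites with a same-strand neighbour (squares) at each height (horizontal axis). The medians were alike at heights of 5 and 6, lower for lone low sites from 7 to 49, and higher for the 8 lone low sites of 50 to 99.

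The P value that the authors deposited for a site was often larger at lone low sites. It was at most 1e-05 at 805 of them (51.2%, interval 48.7 to 53.7), against 70.6% of the whole list and 71.2% of sites with a neighbour. Set against sites with a neighbour of the same heights, the order turned, since only 38.2% of those had a P that small. The median P was 8.5e-06 for lone low sites and 3.6e-08 for sites with a neighbour. At the limit of 1e-100 that the list uses as its smallest P, there were 103 lone low sites (6.55%) and 16.5% of the others.

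The distances behind the rule covered a wide range. The nearest same-strand site was a median of 141 kb away (quartiles 74.1 and 378 kb), and the site on the farther side a median of 779 kb. The distance to the nearest was 50 to 100 kb at 604 sites, 100 to 200 kb at 340, 200 to 500 kb at 331, 500 to 1000 kb at 184 and over 1000 kb at 113. Sites just inside the limit lay 50.2 kb from the next (chromosome 10, plus strand, 134462358 to 134462378, height 7) and 50.3 kb (chromosome 8, minus strand, 120834888 to 120834908, height 9). The low sites just outside it were 49.9 kb from the next, both of height 9, on chromosome 12 from 48445570 to 48445590 and on chromosome 16 from 58160350 to 58160370.

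Heights and PH0 varied little with the degree of isolation. The median height was 7 at 50 to 100 kb and 8 in each class beyond. The median PH0 was 0.26 (interval 0.25 to 0.27) at 50 to 100 kb and 0.30 (0.25 to 0.33) beyond 1000 kb, and the median ratio of height to PH0 lay between 29.4 and 30.3 in these 5 classes. Sites just past the limit, at 50 to 60 kb, had the same median height of 8 as the most distant ones.

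Beyond the limit the next site was either the end of a stretch or another lone low site. A stretch here is a set of at least 2 sites on 1 strand, each within 50 kb of the next, and its outermost sites have a neighbour on 1 side only. The nearest same-strand site was such an outermost site for 1163 lone low sites and another lone low site for 409 (26.0%). The latter share is near the 24.8% that lone low sites made up of all stretches, lone sites included. It was taller than the lone low site in 864 cases, lower in 567 and of equal height in 141, with a median height of 9. Of the 1554 lone low sites with a site of their strand on both sides, the nearer one was upstream on the transcript in 803 (51.7%, interval 49.2 to 54.2), so neither direction stood out.

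Some lone low sites followed each other along a strand. With lone sites counted as stretches of 1 site, lone low sites made up 24.8% of all stretches. There were 869 with no other lone low site next to them, and 703 (44.7%) in 299 runs of 2 or more in a row. The 2 percentages are unlike measures, since a run needs a lone low site on either of 2 sides. The runs were not set against another order, so no excess is shown. Of these runs, 228 had 2 members, 52 had 3, 10 had 4 and 6 had 5. The 3 longest had 7 each: at chromosome 11 (62622109 to 64846408, minus strand, heights 6 to 12), at chromosome 17 (40425776 to 41619815, minus strand, heights 6 to 11), and at chromosome 19 (49710087 to 53871347, plus strand, heights 5 to 65). These 3 runs, singled out after their values were seen, spanned 2224, 1194 and 4161 kb.

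The gaps beside lone low sites held about as many tag clusters per kb as other gaps of their length. Tag clusters are numbered along each strand, in order of position on all 46 chromosome strands, so the difference between the numbers of 2 listed sites counts the clusters from one to the next. In gaps of 50 to 100 kb with a lone low site at an end there was a median of 4.40 clusters per kb (interval 4.12 to 4.64, 584 gaps), against 4.63 (4.40 to 4.82, 707 gaps) in gaps with none. At 100 to 200 kb, where the difference was widest and in the other direction, the medians were 2.55 (2.35 to 2.73) and 2.29 (2.12 to 2.44). At 200 to 500 kb they were 1.13 and 1.12, at 500 to 1000 kb 0.688 and 0.722, and beyond 1000 kb 0.407 and 0.423. For comparison, gaps of 20 to 50 kb had a median of 5.69, and the mean over the whole length of the list was 0.831 per kb of strand.

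The running numbers of the sites were also in order along each strand, and the unlisted numbers between 2 listed sites were read as positions that were considered and not listed. Their median was 3 in gaps of 50 to 100 kb beside a lone low site and 4 in gaps without one, and beyond 1000 kb it was 6 and 8. No number at all was skipped on the shorter side of 160 lone low sites (10.2%). The matching share was not computed for other gaps, so this value has no reference.

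**Figure D3:**
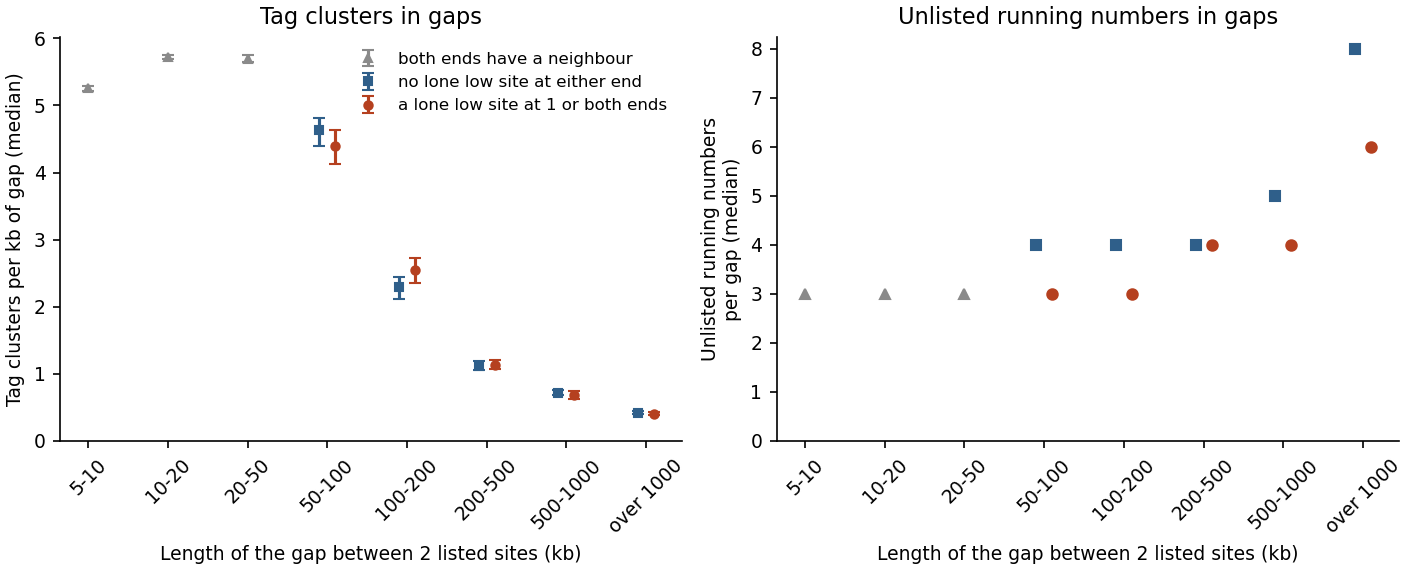
Gaps between neighbouring listed sites of 1 strand, by length in kb (horizontal axis). Left, median tag clusters per kb with 95% intervals; right, median of unlisted running numbers per gap. Circles mark gaps ending at a lone low site, squares other gaps over 50 kb and triangles gaps of 5 to 50 kb; circles and squares were close in the left panel (4.40 and 4.63 at 50 to 100 kb, 2.55 and 2.29 at 100 to 200 kb).

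On the opposite strand, lone low sites had company more often than other sites. An opposite-strand site lay within 50 kb of 268 lone low sites (17.0%, interval 15.3 to 18.99), against 6.94% of the whole list and 6.64% (3503) of sites with a neighbour. The share among sites with a neighbour of the same heights was 7.01%. It was 12.2% (11.6 to 12.9; 1163 of 9502) among the outermost sites of stretches, a reference added after seeing the data because sites inside a stretch have their own strand around them on both sides. The share of lone low sites was higher in 21 of 23 chromosomes than that of sites with a neighbour, with chromosomes 20 (14.3% and 18.8%) and X (3.45% on both) as the exceptions.

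The shares of the 3 groups were compared at other distances too. Within 20 kb there were 84 lone low sites (5.34%, interval 4.34 to 6.57), 3.33% of outermost sites and 1.36% of sites with a neighbour. Within 100 kb the shares were 31.3%, 26.0% and 17.6%. The median distance to the opposite strand was 214 kb for lone low sites (interval 200 to 233), 228 kb for outermost sites and 272 kb for sites with a neighbour. Upper quartiles were close, at 522, 500 and 525 kb.

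**Figure D4:**
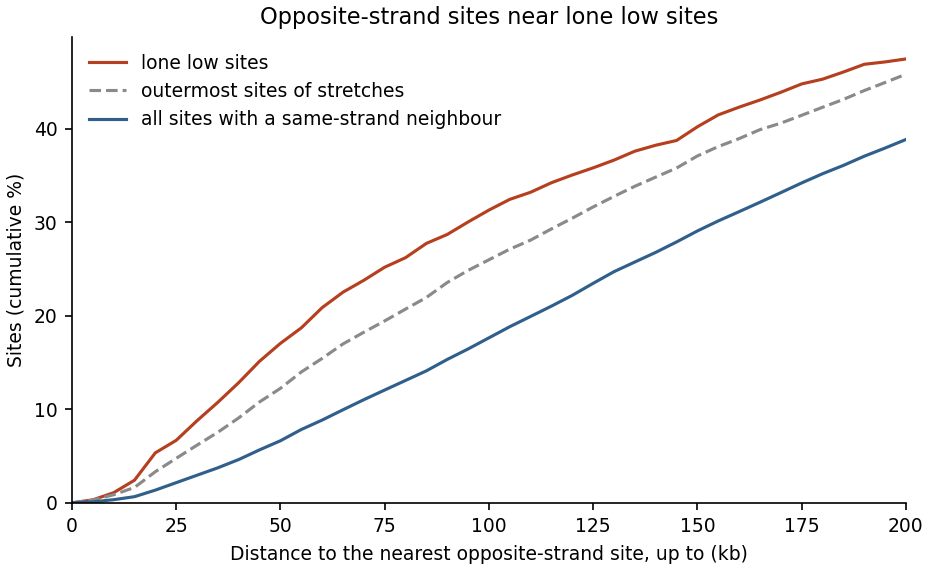
Cumulative percentage of sites (vertical axis) with an opposite-strand site within a given distance in kb (horizontal axis). Lone low sites (17.0% at 50 kb) lay above the outermost sites of stretches (dashed, 12.2%) and above all sites with a same-strand neighbour (6.64%).

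Where the opposite-strand site was close, it usually lay upstream, which is the arrangement of transcripts that point away from each other. Within 20 kb it was upstream of 61 of 84 lone low sites (72.6%, interval 62.3 to 81.0), and within 50 kb of 159 of 268 (59.3%, 53.4 to 65.0). Sites with a neighbour had 68.9% and 53.6%, and the intervals overlapped. The opposite-strand site was itself a lone low site in 61 of the 268 cases (22.8%), about as often as for sites with a neighbour (23.6%). Within 50 kb there were 30 pairs of lone low sites that were each other's nearest opposite-strand site, at a median distance of 27.6 kb. Both sites of such a pair count among the 268, and the intervals treat them as separate. Opposite-strand sites lay within 50 kb on both sides of 9 of 1572 lone low sites. The same held for 169 of 52792 sites with a neighbour and 56 of 9502 outermost sites.

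The closest case, at chromosome 7 (73095488 to 73095508, minus strand), had a height of 7, and its opposite-strand site of height 6 lay 3047 nt upstream. The closest pair of lone low sites was on chromosome 1, with a minus-strand site of height 5 from 46766177 to 46766197 and a plus-strand site of height 8 from 46769731 to 46769751. They were 3554 nt apart and pointed away from each other. On chromosome 12, a minus-strand site of height 10 from 21650350 to 21650370 had its next same-strand site 3434 kb away and an opposite-strand site of height 7 at 6362 nt. Of the 10 lone low sites closest to the other strand, whose heights were 5 to 13, 9 had that site upstream. The 10 include both sites of the chromosome 1 pair, so that arrangement is counted from each side. The exception was a plus-strand site of height 13 on chromosome 12, from 56985613 to 56985633.

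Most lone low sites, 1304 (83.0%, interval 81.0 to 84.7), had no listed site of either strand within 50 kb. Their median height was 8 and their median PH0 was 0.26, the same as for the 268 with an opposite-strand site. The median distance to the next same-strand site was 134 kb for the former and 177 kb for the latter.

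Chromosomes differed in how many of their sites stood alone. Chromosome 19 had the highest share, with 51 of 824 sites (6.19%, interval 4.74 to 8.05), followed by chromosome 22 with 4.55% (3.41 to 6.05) and chromosome 16 with 4.31% (3.42 to 5.41). The lowest shares were those of chromosome 21 (1.78%, 0.995 to 3.15), chromosome 2 (1.93%, 1.58 to 2.35) and chromosome 13 (1.95%, 1.38 to 2.76). The intervals of chromosomes 19 and 22 overlapped, as did those of the 3 lowest. On chromosome 19 the lone low sites had a median height of 8 and a median PH0 of 0.27, close to those of the whole set, and 4 of the 51 had an opposite-strand site within 50 kb.

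The order of chromosomes depended on what the lone low sites were set against. Per Mb spanned by the list, chromosome 22 was highest with 1.30, chromosome 17 had 0.969 and chromosome 19 had 0.868, against 0.537 in all. As a share of separate stretches, lone sites included, chromosome 19 had 28.3% (22.3 to 35.3), against 24.8% in the whole list, and chromosome 22 had 34.6%. Chromosome X, with 4.17% of its sites alone, had only 9.41 sites per Mb and 0.392 lone low sites per Mb.

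The shares by chromosome were set beside gene density. Protein-coding genes were counted per chromosome in a GRCh38 annotation, with no position compared between the builds. Across the 23 chromosomes, the share correlated with coding genes per Mb at r = 0.79 (Spearman's rho 0.68), and without chromosome 19 at r = 0.64 (rho 0.63). With listed sites per Mb, r was -0.10 (rho -0.03). The relation depended on the denominator. For lone low sites as a share of stretches, r with coding genes per Mb was 0.42 (rho 0.57), and 0.53 (rho 0.54) without chromosome 19. For lone low sites per Mb it was 0.60 (rho 0.83), and 0.72 (rho 0.81) without chromosome 19. Lone low sites per Mb correlated with listed sites per Mb at r = 0.54 (rho 0.42), and at 0.67 (rho 0.56) without chromosome 19. These points share 1 list and its depth, and chromosomes are not replicates.

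**Figure D5:**
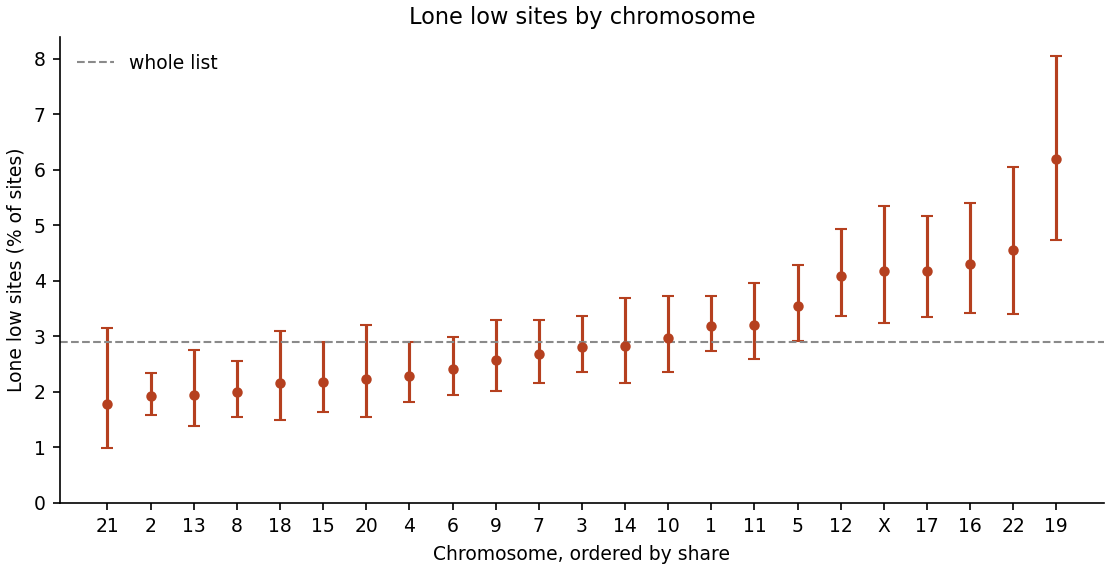
Lone low sites as a percentage of the sites of each chromosome (vertical axis), with 95% Wilson bars; chromosomes are ordered by share and the dashed line is the whole list (2.89%). Chromosome 19 was highest, at 6.19%. The bars of chromosomes 5, 12, X, 17, 16, 22 and 19 lie wholly above the line, and those of chromosomes 2, 13 and 8 wholly below it.

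The 10 tallest lone low sites, with heights of 47 to 96, had high values of PH0 among lone low sites. The tallest, at chromosome 19 (37191520 to 37191540, plus strand), had a height of 96 and a PH0 of 4.54. The next, at chromosome 2 (234642203 to 234642223, plus strand), had a height of 88 and a PH0 of 2.08. A site of height 83 at chromosome 5 (22820623 to 22820643, minus strand), was 5886 kb from its next same-strand site, and PH0 there was 3.12. Over these 10 sites PH0 ranged from 0.66 to 17.2, all above the upper quartile of 0.38 of all lone low sites. PH0 was also higher at tall sites with a neighbour, whose median was 0.14 at a height of 5 and 1.82 at 50 to 99. None of the 10 had an opposite-strand site within 50 kb; the tallest was nearest, at 50.1 kb.

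One site stood out in several respects. It was at chromosome 21 (9825972 to 9825992, plus strand) and had a height of 48 and a PH0 of 17.2, the highest among the lone low sites. Its ratio of 2.80 was the lowest in the whole list, and its P was 3.39e-05. It was also the lone low site farthest from another of its strand, at 7282 kb. The other 9 of the 10 farthest sites were 3474 to 6258 kb from the next. Of the 10, 6 had heights of 5 to 7, and the rest had heights of 24, 40, 48 and 83. For comparison, 95.1% of all lone low sites had a height under 20. The median height was 8 (interval 7 to 9) at all lone low sites beyond 1000 kb. Among the 10 farthest, a site of height 6 lay at chromosome 13 (66993427 to 66993447, minus strand). Its nearest site of either strand was 5903 kb away, on the plus strand.

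The 5 highest ratios of height to PH0 came from sites with heights of 14 to 59 and a PH0 of 0.14 to 0.66. The highest was 105, at chromosome 2 (241377463 to 241377483, plus strand), where the height was 21 and PH0 was 0.20. A site of height 14 at chromosome 22 (29190926 to 29190946, minus strand), had a ratio of 100 with a PH0 of 0.14. The 3 next were 94.6 on chromosome 10 (105673165 to 105673185, height 35), 89.4 on chromosome 1 (109642946 to 109642966, height 59) and 84.6 on chromosome 9 (140081401 to 140081421, height 33). For comparison, the upper quartile of the ratio was 37.5 among lone low sites.

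Just above the height limit, the 2 lowest of the 9 taller lone sites had heights of 100 and 114. They lay at chromosome 5 (57991619 to 57991639, plus strand), with a PH0 of 2.69, and at chromosome 11 (49798870 to 49798890, plus strand), with a PH0 of 3.52. The 9 sites had heights up to 399 and a median PH0 of 6.41, and the next site of their strand was 263 to 2472 kb away.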

How the data were processed

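hnRNPM iCLIP sites of HMLE cells were available as 1 deposited list over 2 libraries of 1 group. The score of each site, a whole number, and the name holding PH, PH0 and P are as the authors deposited them; the score equalled PH at every site. Positions are on GRCh37, as the submitters' processing notes name it. How reads were aligned, sites called and PCR duplicates treated is not given in the sources used here. Sites are 21 nt wide, and distances were taken between middles. Members, lists and comparisons were chosen with earlier results of these data known. Sites were named by a rule: the 10 tallest, 10 farthest, 10 closest to the other strand, 5 of highest PH0, 5 of highest ratio, and those next to the limits. Weighting to height gave each height of the reference the members' frequency. Planned shares inside genes and the gene lists were not run, since the annotation (GENCODE 29) is on GRCh38. The calculations recovered 200 of 200 planted lone sites in a simulated list of 8240 sites. These were placed far beyond the distance limit, with all heights under the height limit. The recovery thus followed from the rule and checks the code only. The tools were pandas 2.3.3, numpy 2.4.6, matplotlib 3.10.9 and scipy 1.17.1 under Python 3.11.15.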

Additional observations from a re-analysis of the deposited data

How the results depend on the processing

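With no value per library, no test was run, no replicate was left out and the depth of the libraries is unknown here, so how many low neighbours were missed cannot be stated. No paired analysis was possible because there is 1 group without library values. Of 59 alternative values, 25 lay inside the reported interval (counts: within 1.5 times) and 34 moved. No ratio or chromosome fold changed sides against 1, and the other values had no such reference. The ratios were recomputed with other references or opposite-strand windows only. They were not recomputed with another neighbour distance, height limit or P limit, and the chromosome folds only with other denominators. The comparison of P values, which turned at the same heights, was not among the 59. The causes were not tested except where the setting itself fixes the value.

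The number of lone low sites was 3106 with a limit of 20 kb, 968 with 100 kb, and 5439 when only neighbours of at least the median height counted. With only sites of P at most 1e-05 there were 1588, with a median height of 10, a median PH0 of 0.33, a median ratio of 31.8 and 12.2% near an opposite-strand site. With 20 kb the median PH0 was 0.28. The opposite-strand share was 12.7% with a limit of 20 kb and 19.01% with 100 kb. In windows of 10, 20 and 100 kb it was 1.08%, 5.34% and 31.3%, which was 3.23, 3.93 and 1.77 times that of sites with a neighbour. At 50 kb it was 2.57 times, but 1.39 times that of outermost sites of stretches and 1.43 times at the same heights. The median PH0 was 0.50 times that of sites with a neighbour, and 0.81 at the same heights, 0.68 against outermost sites, 0.87 against those at the same heights, 0.65 against sites alone in their tag cluster and 0.58 with 1 value per cluster. For the ratio of height to PH0, the factor of 1.26 became 1.19, 1.14, 1.09 and 1.15 against the first 4 of these references. References of outermost sites and of sites alone in their cluster were added after seeing the data. Chromosome 19 had 2.14 times the share of the whole list, 1.62 times per Mb and 1.14 times per stretch; chromosome 22 had 1.57 times, and 2.43 times per Mb. At heights of 4 to 6 the lone share of 14.1% became 24.2% with 20 kb and 8.71% with 100 kb, and at heights of 20 to 99 the share of 0.727% became 1.33% and 0.557%. The shares inside genes were not run without a GRCh37 annotation.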
